A study of Mus musculus with 18 samples.

Results

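The genes described here are those of the mouse mitochondrial chromosome, together with Gm29216, a pseudogene on chromosome 1 that carries a copy of the end of mt-Co1. Every row of the deposited table whose identifier begins with mt- was taken by name, which gave 37 rows: 13 protein genes, 2 ribosomal RNA (rRNA) genes and 22 transfer RNA (tRNA) genes. Gm29216 was added because its level in these same data was high in the AAV-SIRT3 libraries, so it was chosen by its measured value and its group difference is given as a description with no test. Together they made 38 of the 55270 rows. Poly-A RNA of the substantia nigra, a midbrain nucleus rich in dopaminergic neurons, had been sequenced from 3 groups of 6 mice. Intact mice were wild type with no virus named, AAV-GFP mice are labelled as overexpressing green fluorescent protein from an adeno-associated virus (AAV), and AAV-SIRT3 mice as overexpressing sirtuin 3, a deacetylase of the mitochondrial matrix. All were 3 months old, which for the injected groups was about 1 month after the virus. Strain, sex, serotype, promoter and the cells that took up the virus are not given in the sources used here. The AAV-SIRT3 against AAV-GFP comparison holds the virus in common, whereas each comparison with intact mice also contains the injection.

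The mitochondrial chromosome is read from both strands into long precursor RNAs that span many genes. The tRNAs lie between most of the other genes and are cut out of the precursor, which releases the rRNAs and the messenger RNAs. Nearly all the protein genes are read from 1 strand, with mt-Nd6 as the exception. Pieces of mitochondrial sequence have also been inserted into nuclear chromosomes during evolution, and such copies can share reads with the genes they came from.

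Libraries held between 47182529 and 64728587 recovered reads. Mean Sirt3 was 1824 ± 66.3 normalised reads in intact, 1775 ± 92.4 with AAV-GFP and 1937 ± 79.4 with AAV-SIRT3 (± SD, n = 6 each). The Sirt3 row ran from 1684 to 1936 in AAV-GFP and from 1801 to 2041 in AAV-SIRT3 libraries, so these ranges overlapped. The dopaminergic markers Th, Slc6a3, Slc18a2 and Ddc were present in each of the 18 libraries, at no less than 3673, 6087, 4779 and 3673 normalised reads. In bulk tissue, fewer cells of a type and less RNA per cell cannot be told apart. Normalised reads are reads divided by the size factor of the library, a number that evens out depth.

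Gm29216 and its neighbours show how closely nuclear and mitochondrial rows of the table resemble each other. In GENCODE M21 (GRCm38, the build also called mm10), Gm29216 is an unprocessed pseudogene of 492 bases at chr1:24615706-24616197, minus strand (ENSMUSG00000101249.1). It faces bases 1054 to 1545 of mt-Co1, the gene of the catalytic subunit of cytochrome c oxidase. The first 120 bases of the pseudogene (chr1:24616078-24616197, minus strand) and the matching stretch of mt-Co1 (chrM:6381-6500, plus strand) are shown because all the differences between the 2 rows fall in them. Capitals mark the bases that differ.
Gm29216: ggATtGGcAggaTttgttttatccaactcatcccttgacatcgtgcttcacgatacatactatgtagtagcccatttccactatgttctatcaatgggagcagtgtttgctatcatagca
mt-Co1: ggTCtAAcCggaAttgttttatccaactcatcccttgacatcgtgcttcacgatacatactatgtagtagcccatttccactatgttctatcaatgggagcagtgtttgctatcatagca
Counted from the 5′ end of the pseudogene and written with its base first, the differences are A3T, T4C, G6A, G7A, A9C and T13A. The remaining 479 bases are identical, so over the aligned length the identity is 98.78%. A read of 100 bases that lies beyond base 13 holds nothing that tells the 2 rows apart.

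Gm29216 is the last of 7 annotated copies in a row, all on the minus strand of chr1:24611535-24616197. Gm28661 copies mt-Co2 over 681 bases, Gm10925 copies mt-Atp6 over 678, Gm28437 copies mt-Co3 over 783, Gm10222 copies mt-Nd4l over 294 and Gm28439 copies bases 1 to 876 of mt-Nd4, each with 100% identity. Gm28438 copies mt-Nd3 over 345 bases with a single difference, C3T, or 99.71% identity. The stretch with that difference is shown for chr1:24613087-24613119 (minus strand) and chrM:9459-9491 (plus strand), again with the differing base in capitals.
Gm28438: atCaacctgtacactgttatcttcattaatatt
mt-Nd3: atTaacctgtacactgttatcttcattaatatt
On the mitochondrial chromosome, the stretch from the first base after the last difference in Gm29216, base 6394, to the last base that Gm28439 faces, base 11042, is 4649 bases long. It is called the copied stretch below, although the gaps between the annotated copies were not compared. Among the copies, 2 (Gm10222 and Gm28439) are shifted by 1 base against the other 5. The stretch takes in mt-Co2, mt-Atp8, mt-Atp6, mt-Co3, mt-Nd3 and mt-Nd4l whole, and the edges of the stretch lie inside mt-Co1 and mt-Nd4. Gm29215, another row with a similar name, was listed at 0 in all 18 libraries.

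Levels per length split the protein genes along that stretch. In intact libraries the 6 protein genes inside it had between 2039 and 5646 normalised reads per kb, with a median of 3198. The 5 protein genes wholly outside it (mt-Nd1, mt-Nd2, mt-Nd5, mt-Nd6 and mt-Cytb) had between 197800 and 578500 per kb, with a median of 374300. The medians differed 117-fold, and the lowest gene outside was still 35.0-fold above the highest gene inside. The 2 genes that cross an edge stood with the outside genes, mt-Co1 at 884400 and mt-Nd4 at 212100 normalised reads per kb. In each, only part of the sequence was found again: 30.8% of the 100-base windows of mt-Co1 and 60.8% of those of mt-Nd4 occur again in another annotated transcript. Beyond the copies named above, windows of mt-Co1 also matched Gm13340, windows of mt-Co2 matched Gm13341 and 3.19% of those of mt-Nd2 matched Gm13339. Copies outside annotated transcripts were not searched for. By the same count 0 of the 100-base windows of mt-Atp8 occur again, because most of that gene faces the gap between the annotated copies Gm28661 and Gm10925. The sequence of that gap was not compared, so the 0 does not mean that mt-Atp8 has no copy there. The level of mt-Atp8 was 2043 normalised reads per kb in intact libraries.

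**Figure D1:**
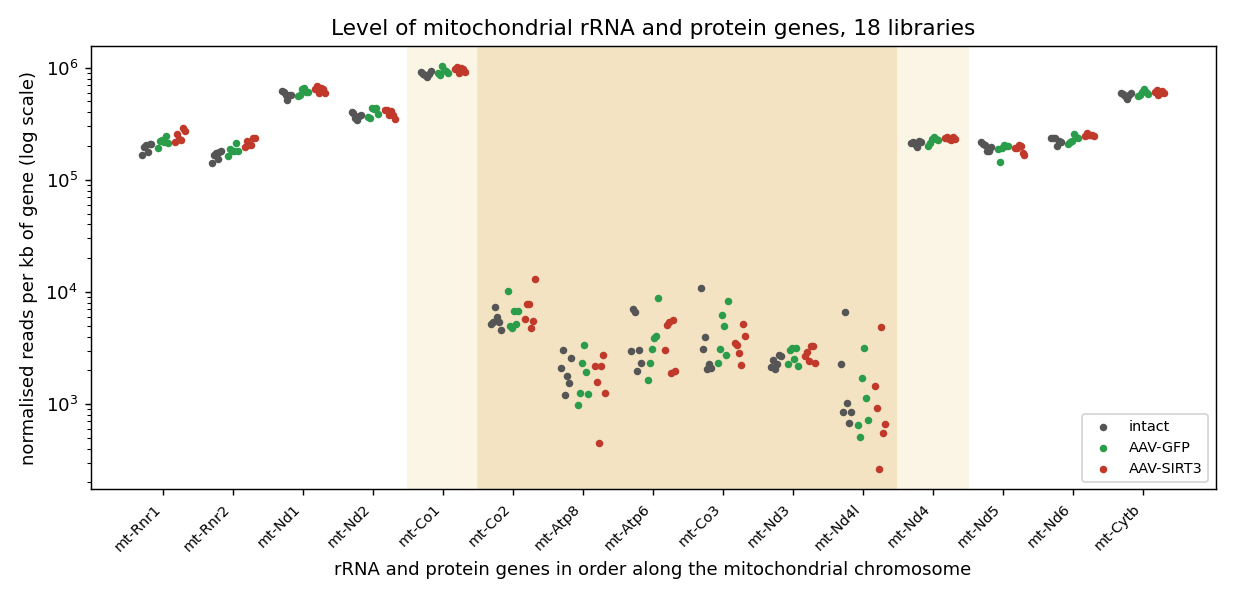
Normalised reads per kb of gene (log scale) for the 2 rRNA and 13 protein genes in their order on the mitochondrial chromosome, 1 point per library, coloured by group. Dark shading marks the 6 genes inside the stretch spanned by the chromosome 1 copies. These genes sit far below the rest. Light shading marks mt-Co1 and mt-Nd4, which cross the edges of the stretch.

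The inside genes also varied more between libraries. Their coefficient of variation (SD over mean) in intact libraries ran from 11.7% for mt-Nd3 to 113% for mt-Nd4l, against 4.90% to 7.63% for the outside protein genes. Among the intact libraries mt-Nd4l differed 9.72-fold from lowest to highest. How reads that match both places were assigned is not stated in the sources used here, and the part of the copies in these levels was not tested. The differences between mt-Co2, mt-Atp6, mt-Atp8, mt-Co3, mt-Nd3 and mt-Nd4l given below are therefore uncertain as measures of mitochondrial RNA.

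Few genes passed the threshold when AAV-SIRT3 was set against AAV-GFP, among the mt- rows and over all genes alike. The mt- rows that passed the filter on low values (at least 10 normalised reads in at least 6 libraries) were 22 of 37: all 13 protein genes, both rRNA genes and 7 tRNA genes. A moderated test (limma) was run over all 19443 genes that passed, and a gene was called where its Benjamini-Hochberg adjusted p was under 0.05. Between AAV-SIRT3 and AAV-GFP, 0 of the 22 mt- rows were called, where 0.113% of all tested genes were. With so small a share, 0 of 22 does not set the mt- rows apart from the other genes. At an unadjusted p under 0.05 the count was 6 of 22, beside 2964 of the 19443. edgeR called 0 of the 22, beside 24 of all genes. DESeq2 called 1, mt-Rnr2, with an adjusted p of 0.0447, beside 311 of all 19443 genes. No mt- row had groups that did not overlap in this comparison, a state met by 0.751% of all tested genes.

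Between AAV-GFP and intact, limma also called 0 of the 22, where 1.84% of all tested genes were called. The unadjusted count was 3 of 22 beside 3707 of 19443, and edgeR and DESeq2 each called 0. Here too no mt- row had separate groups, against 1.86% of all tested genes. Between AAV-SIRT3 and intact, 6 of 22 rows (27.3%) were called, all higher in AAV-SIRT3: mt-Rnr1, mt-Rnr2, mt-Nd4, mt-Nd6, mt-Tc and mt-Tn. Of all tested genes 21.7% were called in either direction and 11.3% as higher, so the share of mt- rows called was close to the share for either direction and above the share for rises alone. With edgeR 7 mt- rows were called and with DESeq2 8, beside 4086 and 4617 of all genes. In 5 rows (mt-Rnr1, mt-Rnr2, mt-Nd4, mt-Nd6 and mt-Tc) the lowest AAV-SIRT3 library lay above the highest intact library, which was so for 5.01% of all tested genes. The median log2 fold change of the 22 rows was 0.14 in this comparison, 0.03 between the virus groups and 0.09 between AAV-GFP and intact. Over all tested genes the corresponding medians were -0.00486, -0.00411 and 0.000743. The 3 comparisons share libraries in pairs, so their values are set side by side and not counted as separate evidence.

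The count of 6 fell to 3 (mt-Rnr1, mt-Rnr2 and mt-Tc) without intact replicate 4 and also without AAV-SIRT3 replicate 3. It was also 3 when the members were scaled to the summed protein-gene reads of their own library. The thalamus markers moved in the same comparison. Of the 8, 6 were called higher in AAV-SIRT3 than in intact libraries, beside 11.3% of all tested genes. Between AAV-GFP and intact 2 of the 8 were called higher, where 1.84% of all tested genes were called in either direction. The median log2 fold change of the thalamus markers was 0.58 with AAV-SIRT3 and 0.55 with AAV-GFP, each against intact. Their summed level ran from 36590 to 87310 normalised reads in intact, 71120 to 83410 in AAV-GFP and 65620 to 91960 in AAV-SIRT3 libraries. With the thalamus level as a covariate 4 mt- rows were called, mt-Nd4 and mt-Nd6 being the 2 that lost the call. Their log2 fold changes in that fit were 0.14 and 0.17, and the calls over all genes fell from 4214 to 2137. The thalamus level itself differed between intact and virus libraries, so that fit cannot separate tissue makeup from group.

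**Figure D2:**
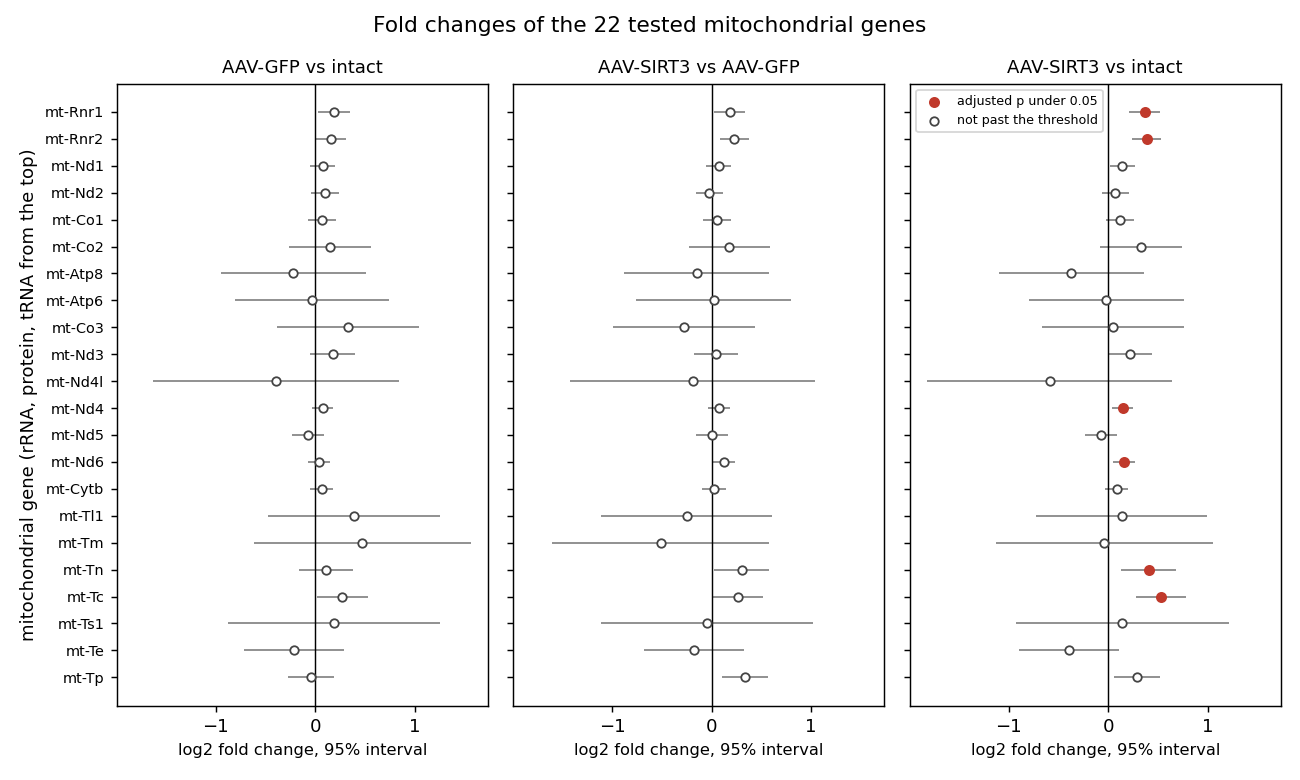
Log2 fold change with its 95% interval for the 22 tested mitochondrial genes in the 3 comparisons, on the log2(value + 1) scale. Filled points mark the 6 genes with an adjusted p under 0.05, all in the panel of AAV-SIRT3 against intact, and the widest intervals belong to mt-Nd4l and the tRNA genes with few reads.

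Both rRNA genes were highest in AAV-SIRT3. The gene mt-Rnr1 (chrM:70-1024) encodes the RNA of the small subunit of the mitochondrial ribosome. It had from 159300 to 200100 normalised reads in intact libraries (median 190700), 184300 to 236400 in AAV-GFP (median 210700) and 208000 to 278000 in AAV-SIRT3 (median 233500). Intact and AAV-SIRT3 libraries did not overlap, while the AAV-GFP libraries spanned the space between and overlapped both. For mt-Rnr1 the log2 fold change in AAV-SIRT3 against intact was 0.37 ± 0.08 (SE; limma adjusted p = 0.00259). It was 0.18 against AAV-GFP (95% interval 0.02 to 0.34, adjusted p = 0.279) and 0.19 for AAV-GFP against intact (0.03 to 0.35, adjusted p = 0.182).

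The large-subunit rRNA gene mt-Rnr2 (chrM:1094-2675) showed the same order. Its normalised reads ran from 223400 to 287300 in intact libraries (median 267400), 256700 to 336300 in AAV-GFP (median 288200) and 309600 to 371600 in AAV-SIRT3 (median 336800). Every AAV-SIRT3 library was above every intact library, and all but 1 of the AAV-GFP libraries lay below the lowest AAV-SIRT3 library. The log2 fold change against intact was 0.39 ± 0.07 (SE; limma adjusted p = 0.0013). Against AAV-GFP it was 0.23 (95% interval 0.08 to 0.38, adjusted p = 0.161), and AAV-GFP against intact gave 0.16 (0.01 to 0.31, adjusted p = 0.226). The calls of both rRNA genes against intact were kept in each of the 31 alternative settings, with adjusted p up to 0.0232 for mt-Rnr1 and 0.0159 for mt-Rnr2. Not all of these settings can move the fold change itself, as given under the processing of the data.

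The rRNA share of all reads did not overlap between intact (0.687 to 0.896%) and AAV-SIRT3 libraries (0.932 to 1.17%). Its mean was 0.818 ± 0.0812% in intact, 0.915 ± 0.0741% with AAV-GFP and 1.04 ± 0.103% with AAV-SIRT3 (± SD, n = 6 each). Within the mitochondrial reads alone, rRNA made up 10.7 ± 0.98%, 11.4 ± 0.866% and 12.7 ± 1.22%, with ranges of 8.81 to 11.5% in intact and 11.2 to 14.3% in AAV-SIRT3 that overlapped at their ends. The ratio of mt-Rnr2 to mt-Rnr1 reads was 1.41 ± 0.0169, 1.39 ± 0.0261 and 1.44 ± 0.0595 in the 3 groups. These rRNA reads are what poly-A selection leaves, so they do not measure the total of ribosomal RNA.

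**Figure D3:**
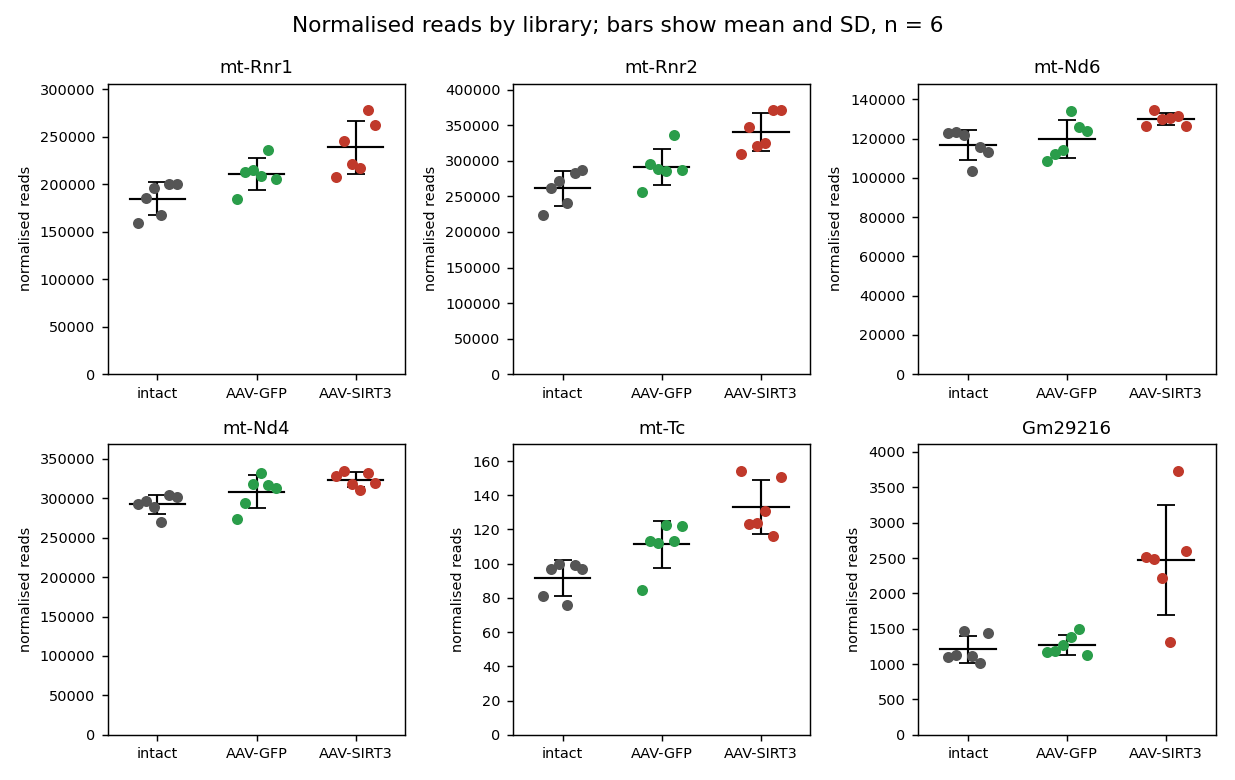
Normalised reads of mt-Rnr1, mt-Rnr2, mt-Nd6, mt-Nd4, mt-Tc and Gm29216 in each library by group, with the group mean and SD (n = 6) as lines. In the first 5 panels all AAV-SIRT3 points lie above all intact points, and in the last panel 5 of 6 AAV-SIRT3 points lie above every other library.

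Complex I of the respiratory chain takes up electrons from NADH, and 7 of its subunits are encoded here. Of these, mt-Nd6 (chrM:13552-14070) is the sole protein gene on the minus strand. Its normalised reads ran from 103700 to 123200 in intact libraries (median 118800), 108600 to 134000 in AAV-GFP (median 118900) and 126400 to 134500 in AAV-SIRT3 (median 130200). The 6 AAV-SIRT3 libraries lay close together above all intact libraries, and 1 of the 6 AAV-GFP libraries reached their range. Its log2 fold change was 0.16 ± 0.05 against intact (SE; limma adjusted p = 0.0382), 0.12 against AAV-GFP (adjusted p = 0.285) and 0.04 for AAV-GFP against intact (adjusted p = 0.767). The call against intact was lost in 11 of 31 alternatives, of which 7 left out 1 library each. Scaled to the protein-gene reads of each library, the value was 0.06 (adjusted p = 0.373). As a share of the protein-gene reads mt-Nd6 was 3.12 ± 0.132% in intact, 3.07 ± 0.185% with AAV-GFP and 3.25 ± 0.112% with AAV-SIRT3. The gene overlaps the end of mt-Nd5 on the other strand, and the strand setting of the counting is not stated in the sources used here.

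The other called subunit, mt-Nd4 (chrM:10167-11544), ran from 270000 to 303900 normalised reads in intact libraries (median 294600), 274100 to 332300 in AAV-GFP (median 315200) and 310600 to 334800 in AAV-SIRT3 (median 323300). Intact and AAV-SIRT3 libraries were again separate. Its log2 fold change against intact was 0.15 ± 0.05 (SE; limma adjusted p = 0.0429), and this call was lost in 18 of the 31 alternatives. Scaled to the protein-gene reads of each library, the value was 0.05 (adjusted p = 0.447). The other 5 subunits were not called. In AAV-SIRT3 against intact the log2 fold change was 0.14 for mt-Nd1 (adjusted p = 0.0967), 0.07 for mt-Nd2, 0.22 for mt-Nd3 (adjusted p = 0.149), -0.07 for mt-Nd5 and -0.59 for mt-Nd4l, whose 95% interval ran from -1.82 to 0.65. The genes mt-Nd4l and mt-Nd4 overlap at their junction, and bases there cannot be assigned to either.

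Complex III, which passes electrons to cytochrome c, has mt-Cytb as its only mitochondrially encoded subunit. The log2 fold change of mt-Cytb was 0.08 in AAV-SIRT3 against intact (95% interval -0.03 to 0.20; limma adjusted p = 0.304) and 0.02 against AAV-GFP (-0.10 to 0.14).

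Complex IV, cytochrome c oxidase, has its 3 core subunits encoded here. The highest row of all the members was mt-Co1 (chrM:5328-6872). It ran from 1271000 to 1442000 normalised reads in intact libraries (median 1358000), 1331000 to 1597000 in AAV-GFP (median 1420000) and 1380000 to 1580000 in AAV-SIRT3 (median 1509000). The groups overlapped, although 4 of the 6 AAV-SIRT3 libraries lay above the highest intact library. For mt-Co1 the log2 fold change was 0.12 against intact (95% interval -0.02 to 0.26; limma adjusted p = 0.219) and 0.05 against AAV-GFP (-0.09 to 0.19, adjusted p = 0.777). DESeq2 called mt-Co1 against intact, with an adjusted p of 0.0478. Of the protein-gene reads mt-Co1 took 36.5 ± 0.766%, 36.8 ± 1.06% and 37.1 ± 0.508% in intact, AAV-GFP and AAV-SIRT3 libraries. The other core subunits, mt-Co2 and mt-Co3, lie inside the copied stretch and were not called. The log2 fold change of mt-Co2 against intact was 0.33 with an interval of -0.08 to 0.74, wider than that of mt-Co1.

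Complex V, the ATP synthase, has 2 subunits encoded here, and their genes overlap. The protein row with the lowest mean was mt-Atp8 (chrM:7766-7969), although mt-Nd4l had the lower median in each group. The normalised reads of mt-Atp8 were 246 to 620 in intact libraries (median 398), 199 to 681 in AAV-GFP (median 323) and 91.5 to 558 in AAV-SIRT3 (median 385). Each group covered most of the range of the others. The log2 fold change of mt-Atp8 was -0.37 in AAV-SIRT3 against intact (95% interval -1.10 to 0.36; limma adjusted p = 0.482), and -0.02 without AAV-SIRT3 replicate 3. Against AAV-GFP it was -0.15, but 0.20 without the same library, which held the lowest value. Its partner mt-Atp6 had 2719 ± 1520 normalised reads in intact, 2711 ± 1750 with AAV-GFP and 2622 ± 1190 with AAV-SIRT3 (± SD, n = 6 each). The bases that the 2 genes share cannot be assigned to either.

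The tRNA genes with the most reads lay on the minus strand. The 8 tRNA genes on the minus strand summed to a mean of 2734 normalised reads per library, and the 14 on the plus strand to 44.6. Of the 2734, mt-Tp alone held 2413. A mean above 10 was reached by 4 of the 8 minus-strand genes and by 1 of the 14 on the plus strand. The minus-strand genes mt-Ta (4.94), mt-Tq (6.30), mt-Ty (7.09) and mt-Ts1 (9.74) lay within the range of the plus strand. Means of single tRNA genes ran from 4.94 to 2413 on the minus strand and from 0.679 to 14.7 on the plus strand, and the genes are all of 59 to 75 bases. Of the 22 tRNA genes, 15 did not pass the filter on low values and 9 were at 0 in at least 1 library. The 7 that passed were mt-Tc, mt-Te, mt-Tn, mt-Tp and mt-Ts1 on the minus strand and mt-Tl1 and mt-Tm on the plus strand.

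**Figure D4:**
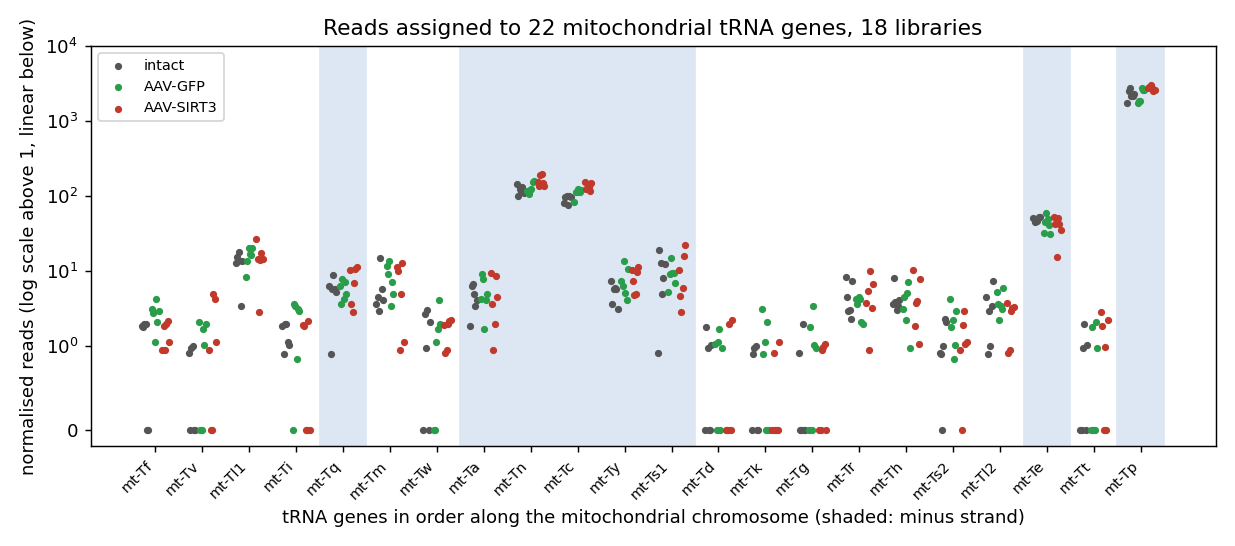
Normalised reads of the 22 mitochondrial tRNA genes in each library, in order along the chromosome, on an axis that is logarithmic above 1 and linear below. Shading marks the minus-strand genes, which include the 4 highest, mt-Tp, mt-Tn, mt-Tc and mt-Te.

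The 3 highest tRNA genes, for proline (mt-Tp, chrM:15356-15422), asparagine (mt-Tn, chrM:5089-5159) and cysteine (mt-Tc, chrM:5192-5257), are shown from the 5′ end of their own, minus, strand with the anticodon in capitals. They are printed because each is shorter than the 100-base read that was assigned to it.
mt-Tp: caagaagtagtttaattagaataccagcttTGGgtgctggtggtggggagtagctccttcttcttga
mt-Tn: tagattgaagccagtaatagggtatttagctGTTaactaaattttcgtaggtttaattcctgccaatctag
mt-Tc: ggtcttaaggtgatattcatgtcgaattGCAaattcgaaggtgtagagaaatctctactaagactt
Mature tRNA and longer RNA that spans a tRNA gene cannot be told apart in these rows. Because the strand setting is not stated, RNA of the opposite strand cannot be told apart from that of the tRNA gene itself.

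The gene for proline tRNA carried most of the tRNA reads. Its values ran from 1740 to 2721 normalised reads in intact libraries (median 2249), 1729 to 2717 in AAV-GFP (median 2219) and 2517 to 3002 in AAV-SIRT3 (median 2755). The AAV-GFP libraries fell into 3 near the bottom of their range and 3 near the top, and the AAV-SIRT3 libraries overlapped the upper values of both other groups. The log2 fold change of mt-Tp was 0.29 against intact (95% interval 0.06 to 0.52; limma adjusted p = 0.0663) and 0.33 against AAV-GFP (0.10 to 0.56, adjusted p = 0.183), and neither was called. The value against intact was called in 2 of the 31 alternatives, with only the 2 groups compared (adjusted p = 0.0195) and without intact replicate 3 (adjusted p = 0.0397).

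The gene for cysteine tRNA was called against intact. It had 75.9 to 99.6 normalised reads in intact libraries (median 97.0), 84.6 to 123 in AAV-GFP (median 113) and 116 to 154 in AAV-SIRT3 (median 127). All AAV-SIRT3 libraries were above all intact libraries, and the lowest of them was within the AAV-GFP range. Its log2 fold change was 0.53 ± 0.12 against intact (SE; limma adjusted p = 0.00437), 0.26 against AAV-GFP (adjusted p = 0.316) and 0.27 for AAV-GFP against intact (adjusted p = 0.222). Its call against intact was kept in all 31 alternatives, with an adjusted p of at most 0.0267.

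The neighbouring gene for asparagine tRNA had 98.8 to 144 normalised reads in intact libraries (median 120), 106 to 158 in AAV-GFP (median 123) and 135 to 197 in AAV-SIRT3 (median 152). Its groups overlapped. For mt-Tn the log2 fold change was 0.41 ± 0.13 against intact (SE; limma adjusted p = 0.0317), a call lost in 8 of 31 alternatives, and 0.30 against AAV-GFP (adjusted p = 0.287). Of the other 4 tested tRNA genes none was called, and mt-Te, for glutamate, was lower by value in AAV-SIRT3 than in intact libraries (log2 fold change -0.40, 95% interval -0.90 to 0.10). The 4 rows mt-Te, mt-Tl1, mt-Tm and mt-Ts1 had group means below 50 normalised reads.

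Gm29216 had from 1022 to 1472 normalised reads in intact libraries (median 1121), 1122 to 1493 in AAV-GFP (median 1226) and 1311 to 3733 in AAV-SIRT3 (median 2496). In 5 of the 6 AAV-SIRT3 libraries it was above all intact and AAV-GFP libraries, and AAV-SIRT3 replicate 4, at 1311, lay within the range of the other groups. The group means were 1213 ± 191, 1271 ± 143 and 2475 ± 777 (± SD, n = 6 each). Its log2 fold change was 0.90 against AAV-GFP and 0.98 against intact, while AAV-GFP and intact differed by 0.07. Without AAV-SIRT3 replicate 5, the highest library, the value against AAV-GFP was 0.77, and without AAV-SIRT3 replicate 4 it was 1.07. These are the values that chose the row, so they carry no test, and the 0.036% of all genes called as higher in AAV-SIRT3 than in AAV-GFP is given for scale alone.

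Mean Gm29216 was 94.7% higher in AAV-SIRT3 than in AAV-GFP libraries, and mean mt-Co1, the gene it resembles, 3.38% higher. Per 1000 reads of mt-Co1, Gm29216 had 0.888 ± 0.136 reads in intact, 0.886 ± 0.0899 with AAV-GFP and 1.67 ± 0.522 with AAV-SIRT3. Per length, mt-Co1 stood at 960900 normalised reads per kb in AAV-SIRT3 and Gm29216 at 5031, so the reads of the pseudogene were a small fraction of those of the gene. Within the groups, the correlation of log2 levels over the 18 libraries was 0.102 between Gm29216 and mt-Co1, 0.594 between Gm29216 and mt-Rnr1 and 0.47 between Gm29216 and mt-Rnr2. The values of the rRNA genes were the highest among the tested mt- rows and the other copies, which ran down to -0.389 for mt-Tn. The other copies ran from -0.269 (Gm28438) to 0.225 (Gm10925). These correlations describe libraries that share their depth and scaling, and have no test.

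**Figure D5:**
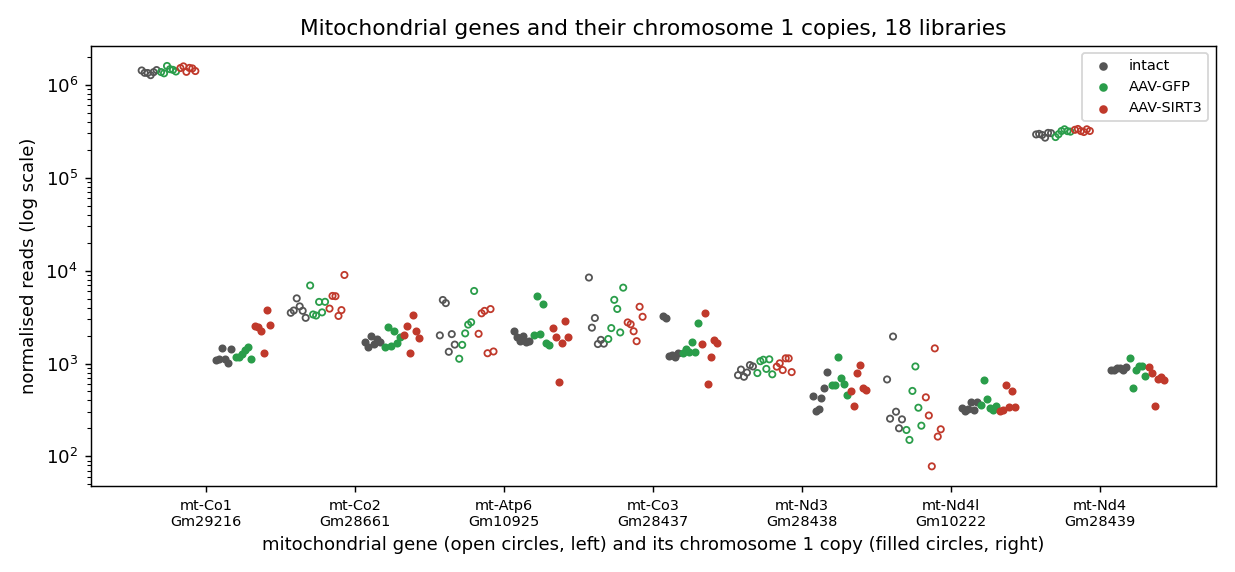
Normalised reads (log scale) of 7 mitochondrial genes (open circles) and of their chromosome 1 copies (filled circles), 1 point per library, coloured by group. For Gm29216, 5 of 6 AAV-SIRT3 points stand above the other groups. The open circles of mt-Co1 and mt-Nd4 are far above those of their copies, while the other 5 genes and their copies lie near each other.

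The other 6 copies were not called in any of the 3 comparisons. Against AAV-GFP, the log2 fold change in AAV-SIRT3 was -0.34 for Gm28439 (limma adjusted p = 0.354), -0.55 for Gm10925 (adjusted p = 0.387) and 0.19 for Gm28661 (adjusted p = 0.596). The values of Gm10222, Gm28438 and Gm28437 lay between -0.17 and -0.03. All 7 copies together took 0.0153 ± 0.00154% of reads in intact, 0.0175 ± 0.00354% with AAV-GFP and 0.018 ± 0.00381% with AAV-SIRT3. Of these, the share of Gm29216 was 14.6 ± 2.85%, 13.7 ± 3.06% and 25.1 ± 7.2%. AAV-SIRT3 replicate 3 held the lowest value of its group in 4 of the 6 other copies, and in 13 of the 29 rows made up of the tested members and the copies. Over the same 29 rows, AAV-GFP replicate 1 was lowest of its group in 15 and intact replicate 4 in 10.

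The genes whose levels were most like those of Gm29216 were Cyp2j12 (Pearson r = 0.835), Rab44 (0.811), Prox2os (0.799), Rpusd3 (0.797) and Gstp2 (0.773), by the correlation of log2 deviations from the group means over the 18 libraries. They are the highest of all tested genes and have no test. None lies on chromosome 1. Rab44 had at most 23.4 normalised reads in any library and Gstp2 at most 38.4, so for these rows a few reads decide the order of the libraries.

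Nuclear genes that make, process and use mitochondrial RNA were taken as 3 lists. The list of 17 genes of mitochondrial transcription and DNA maintenance, among them the polymerase Polrmt and the packaging factor Tfam, had 0 called genes both between the virus groups and between AAV-GFP and intact. In AAV-SIRT3 against intact 1 of the 17 was called, where 21.7% of all tested genes were. It was Mterf3, a factor of the family that binds mitochondrial DNA. Mean Mterf3 was 1232 ± 81.7 normalised reads in intact, 1417 ± 104 with AAV-GFP and 1414 ± 161 with AAV-SIRT3 (log2 fold change 0.19 in AAV-SIRT3 against intact, limma adjusted p = 0.0451).

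The list of RNA processing, stability and decay had 26 tested genes, with 0 called in either of the first 2 comparisons. In AAV-SIRT3 against intact 5 were called higher and 1, Lrpprc, lower, which is 6 of 26 beside the 21.7% of all tested genes. Mrm2, a methyltransferase that acts on the large mitochondrial rRNA, had 451 ± 36.6 normalised reads in intact, 453 ± 38.1 with AAV-GFP and 550 ± 36.8 with AAV-SIRT3 (log2 fold change 0.29 against intact, limma adjusted p = 0.00714). Hsd17b10, a subunit of the enzyme that cuts the 5′ ends of mitochondrial tRNAs, had a log2 fold change of 0.25 (adjusted p = 0.0058), and Ptcd2 one of 0.18 (adjusted p = 0.0284). LRPPRC is known to stabilise mitochondrial messenger RNAs, and the log2 fold change of Lrpprc was -0.14. Of 20 mitochondrial aminoacyl-tRNA synthetases, which load tRNAs with their amino acids, 0 were called in any comparison. The share of all tested genes was at most 21.7%, in AAV-SIRT3 against intact.

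The medians of the 3 lists in AAV-SIRT3 against intact were 0.06, 0.02 and 0.05 on the log2 scale, and in AAV-SIRT3 against AAV-GFP they were -0.01, 0.02 and 0.02. Markers of other cells moved in the comparison with intact as well. Microglial markers had 3 of 6 called higher and endothelial markers 3 of 6 called lower, where 11.3% and 10.3% of all tested genes were. Their summed levels ran from 10110 to 11980 and from 7237 to 9407 normalised reads in intact libraries, and from 10760 to 11730 and from 5924 to 8957 in AAV-SIRT3. Markers of the choroid plexus had 2 of 5 called lower and those of the anterior pituitary 3 of 3, with summed levels of 893.8 to 47950 and 500.9 to 5215 in intact and of 545.1 to 1713 and 56.2 to 592.3 in AAV-SIRT3 libraries. Dopaminergic markers had 0 of 8 called against intact, astrocyte markers 0 of 6, oligodendrocyte markers 1 of 6 (higher) and general neuronal markers 2 of 6, 1 in each direction. Between AAV-SIRT3 and AAV-GFP, 0 of the markers of any of these lists were called. Between AAV-GFP and intact, 3 of 3 pituitary markers and 1 of 8 dopaminergic markers were called lower, beside 1.84% of all tested genes. There 1 of 6 microglial and 1 of 6 astrocyte markers were called higher. The choroid plexus, endothelial, oligodendrocyte and general neuronal markers had 0 called. The median log2 fold change of the pituitary markers was -4.24 with AAV-GFP and -3.16 with AAV-SIRT3, each against intact. The part of tissue makeup in the differences of the members from intact was not tested. The fit with the thalamus covariate cannot decide it, because the thalamus level itself differed between intact and virus libraries.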

How the data were processed

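Per the labels' protocols, poly-A RNA of 18 substantia nigra samples went into TruSeq Stranded libraries read in pairs of 100 bases. The deposited table holds a signal per gene, which by its name is HTSeq counts normalised with DESeq2 by the authors. The submitters' processing notes name HISAT2 2.1.0, DESeq2 1.34.0 and mm10. The annotation, strand setting and treatment of multiply mapped reads are not stated. Multiplying each column by its size factor returned whole reads for 100% of values above 0 (tolerance 1e-06 reads), and depth comes from those reads. In 2 columns the size factor is close to 1, so whole values show less there. Reads are not independent molecules. Replicates differed by more than sampling noise (chi-square per degree of freedom 7.75 to 33.5). The 6 samples per group are separate mice, per the design text.

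Groups came from the sample titles, and 0 value columns were left unmatched. limma 3.58.1 (R 4.3.3) was fitted with a trend to log2(value + 1) over the 19443 genes with at least 10 normalised reads in at least 6 libraries, with all 3 groups in 1 fit and Benjamini-Hochberg adjustment per comparison. Fold changes on that scale understate those of low genes. Alternatives were TMM factors, size factors from nuclear genes, pseudocounts of 0.5 and 10, no filter, means of 50 or more, count tests on the recovered reads (edgeR 4.0.16, DESeq2 1.42.0), the 2 groups alone, a replicate block, a thalamus covariate, scaling to the mitochondrial protein sum and leaving out each library. Leaving out 2 libraries together was added after seeing the data. The alternatives share most of their libraries. Leaving out a library of the group not compared, or changing the filter, cannot move a fold change and alters only its test. On simulated counts for AAV-SIRT3 against AAV-GFP, 157 of 200 changed genes among 19443 were called, with 5 false calls. The share called was 45.5% at a log2 fold change of 0.5, 91.4% at 1 and 98.4% at 2. The simulated spread of a gene followed from its mean alone, with no outlying libraries. These shares therefore do not describe rows that vary more than simulated, or less, as the rRNA genes and the outside protein genes did. No change smaller than 0.5 was simulated, so the share called for smaller ones is not known.

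Sequences and positions came from GENCODE M21 (GRCm38) by gene symbol. Copied windows of 100 bases were searched as exact matches in the GENCODE transcripts alone, not in the genome sequence. Values in every library, given as lowest, median and highest, were reserved for mt-Rnr1, mt-Rnr2, mt-Nd6, mt-Co1, Gm29216, the 3 highest tRNA genes, the highest and lowest protein gene and each mt- gene past the threshold. From each nuclear list at most the 3 largest called genes were named, with Lrpprc added as the single fall. The members and lists were chosen with earlier results of these data known.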

Additional observations from a re-analysis of the deposited data

Results flagged for a closer look

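Of 96 groups of 6 libraries examined (the tested members, the other chromosome 1 copies and the shares of reads in protein, rRNA and tRNA genes, each in 3 groups), 13 held a library far from the other 5, where chance alone is expected to give 4.8, about 1 group in 20. Of the 13, 9 were rows inside the copied stretch or its chromosome 1 copies. Such rows were 6 protein genes, 1 tRNA gene and the 7 copies, each in 3 groups, so they were a large part of the 96. The rows are not independent of each other, so the 4.8 is a rough guide. AAV-GFP replicate 6 stood above its group in mt-Atp6, at 6039 normalised reads with the next library at 2781, and in Gm28437, at 2718. For mt-Co2, AAV-GFP replicate 1 reached 6917 and AAV-SIRT3 replicate 6 reached 8977, against 4613 and 5339 in the next libraries. Intact replicate 1 had 8423 reads of mt-Co3, with the next at 3088. For mt-Nd4l, intact replicate 3 had 1952 and AAV-SIRT3 replicate 4 had 1455, against 673 and 432 in the next libraries. The copies Gm10222 and Gm28438 were highest in AAV-GFP replicate 2 (661 reads) and AAV-GFP replicate 3 (1162 reads). Outside the stretch, mt-Nd5 was lowest in AAV-GFP replicate 2 at 265500 reads, with the next at 346000. AAV-GFP replicate 1 had the lowest mt-Tc of its group, 84.6 reads, with the next at 112. The tRNA rows mt-Tl1 (3.42 reads in intact replicate 5, lowest) and mt-Tm (15.0 reads in intact replicate 4, highest) rest on few reads.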

How the results depend on the processing

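The count of mt- rows called between AAV-SIRT3 and intact was 6 and ranged from 3 to 6 when 1 library was left out. It was 3 with no filter and 3 when scaled to the mitochondrial protein sum. It was 7 with edgeR, 8 with DESeq2 and 7 with the 2 groups alone. DESeq2 gave 1 call between AAV-SIRT3 and AAV-GFP in place of 0, and leaving out 1 library gave 0 to 0 there and 0 to 0 between AAV-GFP and intact. Over all genes, leaving out 1 library moved the calls from 22 to between 5 and 861 (AAV-SIRT3 against AAV-GFP), from 358 to between 129 and 686 (AAV-GFP against intact) and from 4214 to between 3279 and 4633 (AAV-SIRT3 against intact). Shared replicate numbers did not pair the libraries: their deviations correlated between -0.0953 and 0.175, and the replicate block gave 0, 0 and 4 called mt- rows in the same order. Values that missed the threshold and changed sign were mt-Nd6 in AAV-GFP against intact (-0.0238 when scaled to the mitochondrial protein sum), mt-Tp in the same comparison (-0.04, and -0.116 to 0.0241 when 1 library was left out: 0.0125 without intact replicate 3 and 0.0241, 0.00693 and 0.00717 without AAV-GFP replicates 1, 2 and 3, and 0.00693 under the added setting) and mt-Atp8 in AAV-SIRT3 against AAV-GFP (-0.322 to 0.197 when 1 library was left out: 0.0482 without AAV-GFP replicate 4, 0.197 without AAV-SIRT3 replicate 3, and 0.112 under the added setting). The added setting left out AAV-SIRT3 replicate 3 and AAV-GFP replicate 2 together and was chosen after seeing the data. The cause of these changes was not tested. Most tRNA rows are too low for a test, and rows of the copied stretch are limited by the unstated assignment of shared reads.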
